A study of Mus musculus with 4 samples.

Results

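Toll-like receptors, Nod-like receptors, the adaptors and kinases that act below them, and the inflammasome caspases and gasdermins were followed in RNA sequencing counts from mouse skin. The set held 34 genes chosen by name, of 39179 genes counted, and all 34 were found in the files by their GENCODE vM21 symbol. The choice was made with earlier results of these data known, so counts above the share over all genes may follow from it. The study compared 2 libraries of wild-type (WT) skin with 2 libraries of lesional skin from mice without Itch (Itch KO), a ubiquitin ligase whose loss is known for inflammation and scratching. All 4 samples carried the C57BL/6 background, and the labels gave inflammation as the phenotype of the WT samples too. The labels give no age, sex, body site or kind of Itch allele. Nor do they say if the 2 libraries of a genotype were taken from different mice, and p-values therefore reflect library-to-library spread that may be technical.

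Toll-like receptors bind microbial lipids, proteins and nucleic acids at the cell surface or in endosomes. Most of them signal through Myd88 to the Irak kinases and Traf6, and from there to NF-kB and mitogen-activated protein kinases. Nod receptors sense fragments of bacterial cell wall in the cytosol, and the inflammasome sensors Nlrp3, Nlrc4 and Aim2 activate caspase-1, through the adaptor Pycard in many cases. Active caspase-1 matures the cytokines of the Il1b and Il18 genes and cuts gasdermin D, whose freed part forms pores in the cell membrane. In skin, keratinocytes carry some of these genes, and macrophages, dendritic cells and neutrophils carry many.

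Reads assigned to genes numbered 15144957 to 16008351 per library. Itch stood at 96.7 and 103 CPM, the read count scaled to the size of its library, in WT and at 11.7 in each Itch KO library. Xist, the RNA that silences an X chromosome in females, measured 1055 and 631 CPM in WT, against 0.947 and 0.892 CPM in Itch KO. The Y-linked Eif2s3y stood at 0.133 and 0.126 CPM against 69.5 and 73.7, so genotype and sex cannot be told apart. Keratinocyte markers were abundant in every library, with summed levels of 12696 to 15479 CPM over 8 genes. WT replicates 1 and 2 differed in skeletal muscle markers (15448 and 2538 CPM over 9 genes, against 1171 and 985 in Itch KO) and in hair shaft markers (33.1 and 6677 CPM over 8 genes, against 5366 and 7471). Macrophage and monocyte markers summed to 561 and 695 CPM in WT, against 4017 and 3260 CPM in Itch KO over 15 genes, of which 14 lay higher in both Itch KO libraries. Neutrophil markers summed to 10.1 and 32.3 CPM against 2042 and 863 over 10 genes, all 10 higher in both Itch KO libraries. Most of each Itch KO sum came from S100a8, at 609 and 265.5 CPM, and S100a9, at 1049 and 447 CPM. Ly6g had 0 counts in WT, against 46 and 15 in Itch KO. Among all tested genes, 31.2% were higher in both Itch KO libraries. In bulk skin, more cells of a type and more RNA per cell cannot be told apart. The part of these cell types in the results below was not tested.

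Most receptors stood higher in the Itch KO libraries, as did some of the adaptors and kinases below them, Myd88, Irak4 and Ticam2 among them, while the caspases overlapped with WT. The filter on low counts kept 33 of the 34 genes for testing and left out Tlr11. Of these 33, 0 passed at an adjusted p under 0.05 in edgeR's quasi-likelihood test, in which 0.00601% of all 16651 tested genes passed, a single gene. At an unadjusted p under 0.05, 15 lay higher and 0 lower in Itch KO, against 12.0% higher and 10.9% lower among all tested genes. For 19 of the 33 genes each Itch KO library exceeded each WT library, and for 5 each was lower, where 31.2% and 30.0% of all tested genes did. Tlr6, Tlr12 and Nlrc4 reached the filter's minimum in neither WT library and Ticam2 in 1 of them, so these were tested because of their Itch KO counts. Among the 29 genes that met it in both WT libraries, 11 lay higher at an unadjusted p under 0.05 and 15 had both Itch KO libraries on top. The shares above are over all tested genes, and those for genes that met it in both WT libraries were not computed.

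The median log2 fold change of Itch KO over WT was 0.93 over the 33 tested genes, and 0.96 over all 34 in a fit without the filter. Over all tested genes the median was 0.01. Knockout replicate 1 carried much of the size: without it, the median was 0.41 and 9 genes lay higher at an unadjusted p under 0.05, where 5.81% of all genes did. DESeq2, another count test, called 12 of the 34 genes, all higher, where 13.0% of genes with an adjusted p were called, 7.53% as higher and 5.46% as lower. The 12 were Tlr1, Tlr2, Tlr6, Tlr7, Tlr8, Tlr13, Cd14, Myd88, Ticam2, Irak4, Nlrp3 and Gsdmd. limma-voom called 0 of the 33, and 16 had an unadjusted p below 0.05. In fits where the spread came from the 2 Itch KO libraries alone, edgeR called 5 of the 34 genes without WT replicate 1, all higher, where 7.69% of all genes were called and 5.52% as higher. Without WT replicate 2 it called 8 as higher and 1, Nod1, as lower, where 30.6% of all genes were called, 15.3% in each direction. At an unadjusted p under 0.05 that fit had 11 of the 34 genes higher and 4 lower, where 22.2% and 21.7% of all genes were.

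**Figure D1:**
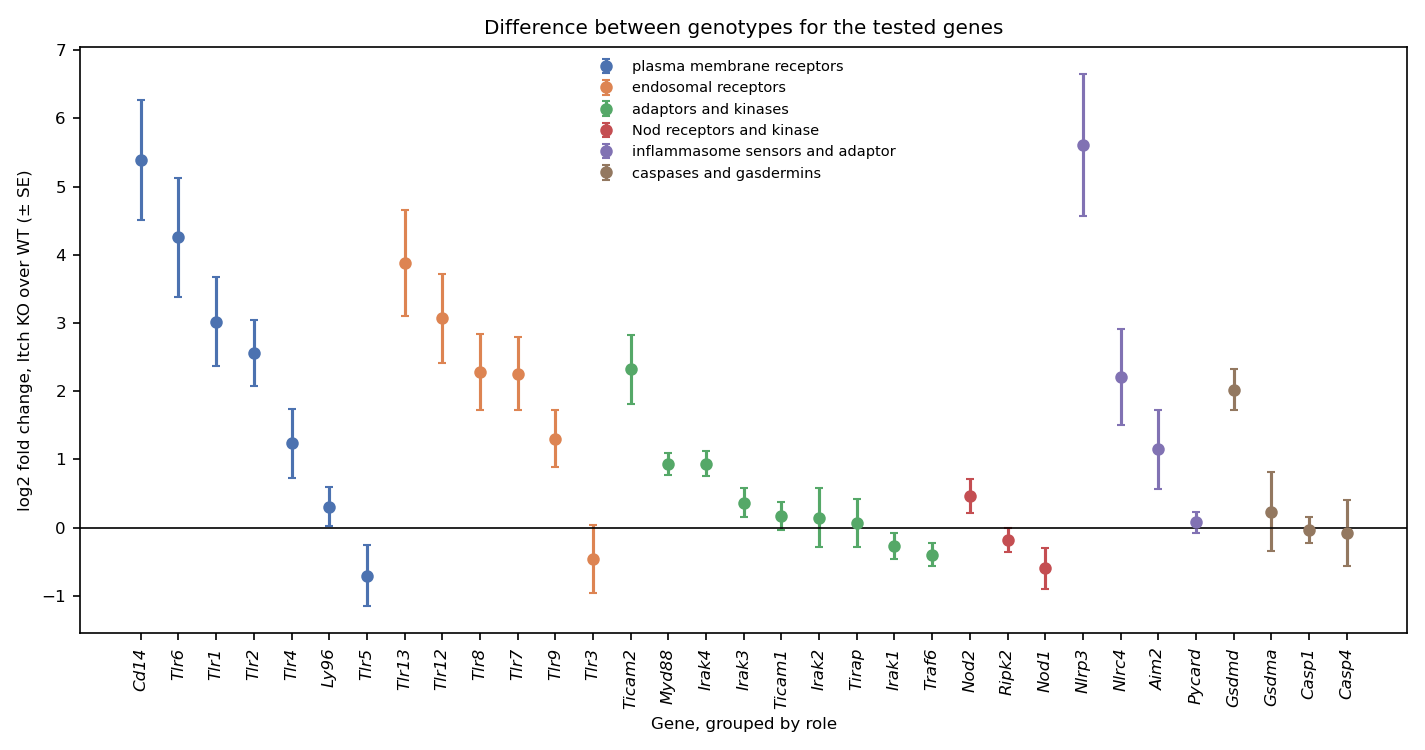
Log2 fold change of Itch KO over WT with its standard error (vertical bars) for the 33 tested genes, coloured by role. Cd14 at 5.39 and Nlrp3 at 5.61 stand highest, and 5 of the 9 adaptors and kinases lie between -0.40 and 0.17.

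Receptors of the plasma membrane were led by the co-receptor Cd14. Of these 7 genes, 5 lay above WT in both Itch KO libraries, where 31.2% of all tested genes did. The 5 include Tlr6, which was tested because of its Itch KO counts. Cd14 hands bacterial lipopolysaccharide to Tlr4 and its partner Ly96. Cd14 had 96 and 139 counts in WT, against 8193 and 1896 in Itch KO, or 6.40 and 8.77 CPM against 518 and 121. The groups lay far apart, and the lower Itch KO library was 13.8 times the higher WT library. The log2 fold change was 5.39 (SE 0.88), with edgeR adjusted p = 0.0872 and DESeq2 adjusted p = 4.11e-13. Over the 10 alternatives that adjusted p ranged from 4.11e-13 to 0.350. The log2 fold change ranged from 3.98, without knockout replicate 1, to 6.09.

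Tlr4, the receptor for lipopolysaccharide itself, differed less than Cd14. Tlr4 measured 15.3 and 6.19 CPM in WT, against 29.1 and 21.3 in Itch KO (log2 fold change 1.23, SE 0.50, edgeR adjusted p = 0.244). The groups did not overlap, but WT replicate 1 lay closer to Itch KO than to WT replicate 2. Ly96, the lipopolysaccharide-binding partner of Tlr4, stood at 8.67 and 9.97 CPM against 13.2 and 9.88, with overlapping groups (log2 fold change 0.31, SE 0.29). Whether the fold changes of these 3 genes differ from each other was not tested.

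Tlr2 and its partners Tlr1 and Tlr6, which pair with Tlr2 to bind bacterial lipopeptides, all lay higher in Itch KO. Tlr2 measured 7.20 and 6.88 CPM in WT, against 58.5 and 24.7 in Itch KO (log2 fold change 2.56, SE 0.48, edgeR adjusted p = 0.0996). Tlr1 stood at 0.933 and 2.08 CPM against 17.1 and 7.52 (log2 fold change 3.02, SE 0.66, adjusted p = 0.117). Tlr6 was almost silent in WT, with 9 counts in each library, and had 289 and 68 counts in Itch KO (log2 fold change 4.26, SE 0.88, adjusted p = 0.111). For each of the 3 genes, knockout replicate 1 was the highest library and both WT libraries the lowest. Tlr5, the flagellin receptor, went the other way, with 6.13 and 4.23 CPM in WT, against 3.98 and 2.36 in Itch KO. Its groups were separated by a narrow gap only (log2 fold change -0.71, SE 0.45, adjusted p = 0.387).

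Receptors of the endosome bind nucleic acids or, for Tlr11 and Tlr12, the protozoan protein profilin. Of these 7 genes, 5 lay above WT in both Itch KO libraries, where 31.2% of all tested genes did. The 5 include Tlr12, which was tested because of its Itch KO counts. Tlr13, a mouse receptor for bacterial ribosomal RNA, had the largest log2 fold change among the endosomal receptors tested. Tlr13 measured 1.53 and 2.71 CPM in WT, against 48.9 and 14.1 in Itch KO (log2 fold change 3.88, SE 0.78, edgeR adjusted p = 0.110, and 2.38e-06 in DESeq2). Both Itch KO libraries lay clear of WT, and adjusted p ranged from 2.38e-06 to 0.460 over the alternatives. Tlr7, a receptor for single-stranded RNA, stood at 2.40 and 2.46 CPM against 16.4 and 6.82 (log2 fold change 2.25, SE 0.53). Tlr8, its close relative, stood at 1.73 and 0.758 CPM against 7.20 and 4.97 (log2 fold change 2.28, SE 0.56). For both, the genotypes did not overlap.

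Tlr9, which binds bacterial DNA, was low and differed modestly, at 1.27 and 0.884 CPM in WT, against 2.97 and 2.36 in Itch KO (log2 fold change 1.30, SE 0.42, edgeR adjusted p = 0.186). Tlr12 rested on few reads, 1 and 3 counts in WT, against 21 and 15 in Itch KO (log2 fold change 3.07, SE 0.65, adjusted p = 0.115). Tlr11 had 9 and 3 counts in WT, against 26 and 8 in Itch KO, with overlapping groups, and was not tested. Tlr3, the receptor for viral RNA duplexes, did not follow the others. Tlr3 measured 21.0 and 9.59 CPM in WT, against 13.7 and 8.47 in Itch KO, and the groups overlapped (log2 fold change -0.46, SE 0.50, adjusted p = 0.601). The WT libraries alone differed by 2.19-fold for Tlr3, and without WT replicate 1 its log2 fold change was 0.20.

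Tlr7, Tlr8, Tlr13 and Irak1 lie on the X chromosome, where the inferred sexes of the groups differ. Over 578 X-linked tested genes, 28.7% had both Itch KO libraries above both WT libraries and 36.3% below, with a median log2 fold change of -0.07. The 3 X-linked receptors stood above WT and Irak1 below.

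The make-up of the Toll-like receptor transcripts shifted with genotype. Counted per kilobase of merged exon, the 12 Toll-like receptors summed to 12.9 and 8.71 CPM per kilobase in WT and to 57.3 and 25.04 in Itch KO. In WT, Tlr3 took 31.3% and 21.2% of that sum, and in Itch KO 4.60% and 6.50%. Tlr5 likewise took 9.94% and 10.1% in WT and 1.45% and 1.97% in Itch KO. Tlr13 took 2.77% and 7.24% in WT and 19.8% and 13.1% in Itch KO. Tlr2 took the largest share in 3 of the 4 libraries, at 26.2% in WT replicate 2 and 33.9% and 32.8% in Itch KO, while Tlr3 led in WT replicate 1. These shares follow from the levels above and carry no test of their own.

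**Figure D2:**
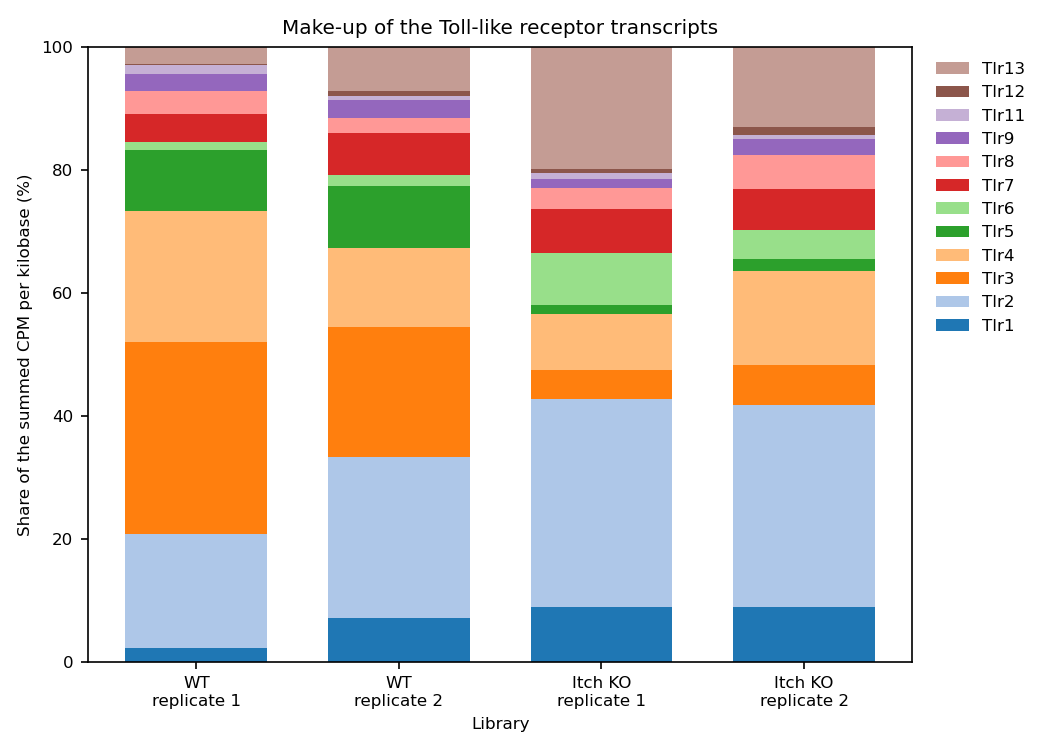
Share of each of the 12 Toll-like receptor genes in their summed CPM per kilobase of exon (percent), 1 bar per library. The shares of Tlr3 and Tlr5 are smaller and that of Tlr13 larger in both Itch KO libraries than in either WT library.

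Promoter windows of RefSeq genes (GRCm38.p6, 250 bases before to 50 after a start) were at hand for 26 of the 34 genes, using the window listed first for each gene. They are shown for Nlrp3, Tlr6 and Tlr13, which had the widest fold changes among genes with such a window, and for Traf6, a shared signalling gene that stood slightly lower in Itch KO. The windows are chr11:59542436-59542735 on the plus strand for Nlrp3, chr5:64959117-64959416 on the minus strand for Tlr6, chrX:106143025-106143324 on the plus strand for Tlr13 and chr2:101678170-101678469 on the plus strand for Traf6. Each is written 5′ to 3′ along its gene, and capitals mark matches to any of the 4 motifs searched.
Nlrp3: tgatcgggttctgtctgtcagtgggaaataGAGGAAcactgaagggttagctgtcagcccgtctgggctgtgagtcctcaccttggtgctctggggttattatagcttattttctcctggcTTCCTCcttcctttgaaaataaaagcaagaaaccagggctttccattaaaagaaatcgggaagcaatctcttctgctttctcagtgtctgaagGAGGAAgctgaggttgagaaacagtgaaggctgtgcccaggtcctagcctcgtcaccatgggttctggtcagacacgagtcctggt
Tlr6: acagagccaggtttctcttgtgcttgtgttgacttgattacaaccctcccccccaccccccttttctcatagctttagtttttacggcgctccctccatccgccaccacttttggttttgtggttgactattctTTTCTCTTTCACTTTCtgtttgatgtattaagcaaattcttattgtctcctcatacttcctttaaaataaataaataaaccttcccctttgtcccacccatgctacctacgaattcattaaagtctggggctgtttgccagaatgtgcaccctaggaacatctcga
Tlr13: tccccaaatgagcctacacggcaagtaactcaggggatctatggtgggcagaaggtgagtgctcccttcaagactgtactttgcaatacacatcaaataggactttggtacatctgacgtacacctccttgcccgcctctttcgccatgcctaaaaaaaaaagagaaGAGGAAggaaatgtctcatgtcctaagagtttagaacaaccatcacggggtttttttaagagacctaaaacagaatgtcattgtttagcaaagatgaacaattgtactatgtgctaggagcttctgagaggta
Traf6: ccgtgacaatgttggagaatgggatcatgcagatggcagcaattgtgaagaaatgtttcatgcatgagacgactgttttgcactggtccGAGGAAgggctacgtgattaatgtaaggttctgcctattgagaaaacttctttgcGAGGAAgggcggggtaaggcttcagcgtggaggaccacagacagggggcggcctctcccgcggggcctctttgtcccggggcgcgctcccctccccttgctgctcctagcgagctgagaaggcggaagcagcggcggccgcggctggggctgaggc

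The capitals in Nlrp3, Tlr13 and Traf6 are the Ets core GAGGAA, which the myeloid factor PU.1 can bind, on either strand. Those in Tlr6 are matches to the interferon response core GAAANNGAAA that overlap each other. All motifs were searched on both strands with overlaps allowed. The Ets core was found in 11 of the 26 promoters (42.3%) and in 28.3% of 27018 promoters of the same length. Of the 14 promoters whose genes stood above WT in both Itch KO libraries, 6 held it. The NF-kB motif was found in 4 promoters (15.4%), those of Tlr2, Tlr3, Irak1 and Casp4, and in 8.18% of all. The interferon core was found in 3 (11.5% against 3.49%), and the AP-1 motif TGANTCA in the Tlr9 promoter alone (3.85% against 7.94%). These are matches of letters and not evidence of binding, and the Ets core was also in the windows of Traf6, Casp1 and Pycard, whose log2 fold changes were -0.40, -0.03 and 0.08.

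Of 9 adaptors and kinases below the Toll-like receptors, 4 lay above WT in both Itch KO libraries, 2 lay below and 3 overlapped. Among all tested genes 31.2% lay above and 30.0% below. The 4 include Ticam2, which was tested because of its Itch KO counts. The median log2 fold change of the 9 genes was 0.17, against 2.56 and 2.27 for the plasma membrane and endosomal receptors tested. Myd88, the adaptor of most Toll-like receptors, was the most abundant adaptor and lay higher in both Itch KO libraries. Myd88 measured 47.1 and 53.6 CPM in WT, against 92.0 and 100.8 in Itch KO (log2 fold change 0.94, SE 0.16, edgeR adjusted p = 0.0877). Irak4, the kinase that Myd88 recruits first, matched it at 18.4 and 17.7 CPM against 33.03 and 35.9 (log2 fold change 0.93, SE 0.18, adjusted p = 0.105). Both genes were tight within each genotype. DESeq2 called both (adjusted p = 0.00266 and 0.00562), where it called 7.53% of genes as higher. limma-voom called neither (adjusted p = 0.0939 and 0.114). Over the 10 alternatives the log2 fold change ranged from 0.84 to 1.04 for Myd88 and from 0.88 to 0.99 for Irak4. Myd88 shares 11.3% of its exon bases with Acaa1a and Irak4 7.87% with Twf1, each on the opposite strand, so counts without strand could mix them. Twf1 also had more reads in Itch KO, 2620 and 2247 against 1111 and 1717 in WT.

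Traf6, the ubiquitin ligase below the Irak kinases, and Irak1, which joins Irak4 in the receptor complex, stood slightly lower. Traf6 measured 105 and 88.8 CPM in WT, against 77.3 and 69.6 in Itch KO (log2 fold change -0.40, SE 0.17, adjusted p = 0.251). Irak1 stood at 109 and 87.1 CPM against 86.7 and 76.0, with a gap of under 1 CPM between the groups (log2 fold change -0.27, SE 0.19). Among the 4 Irak genes, Irak1 took 55.5% and 52.3% of the summed CPM per kilobase in WT and 40.5% and 43.8% in Itch KO. Irak4 took 8.81% and 9.97% in WT and 14.5% and 19.5% in Itch KO.

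Irak3, an inhibitory member of the family found mainly in myeloid cells, differed little. It measured 26.5 and 31.1 CPM in WT, against 41.2 and 32.8 in Itch KO (log2 fold change 0.36, SE 0.21, adjusted p = 0.362). Irak2 stood at 33.7 and 21.5 CPM against 40.6 and 20.4, so the spread within each genotype exceeded the difference between them. Ticam1, the adaptor of Tlr3, stood at 23.07 and 20.1 CPM against 22.8 and 25.7. Tirap, which brings Myd88 to the membrane, stood at 17.7 and 10.5 CPM against 16.4 and 13.1, and its groups overlapped as those of Ticam1 and Irak2 did. Ticam2, which links Tlr4 to Ticam1, was the exception, with 9 and 15 counts in WT, against 77 and 46 in Itch KO (log2 fold change 2.32, SE 0.51, adjusted p = 0.118). It shares 14.5% of its exon bases with Tmed7 on the same strand, and Tmed7 had 1884 and 2160 counts in WT, against 2295 and 2132 in Itch KO.

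The Nod receptors went opposite ways by small amounts. Nod1, which is broadly expressed, measured 115 and 67.7 CPM in WT, against 63.7 and 56.7 in Itch KO (log2 fold change -0.60, SE 0.30, adjusted p = 0.302). WT replicate 1 stood apart from the other libraries: without it the log2 fold change was -0.17, and without WT replicate 2 it was -0.93 (adjusted p = 0.0101, within a range of 0.0101 to 0.810 over the alternatives). Nod2, better known from myeloid cells, stood at 13.7 and 11.4 CPM against 18.6 and 15.9 (log2 fold change 0.46, SE 0.25, adjusted p = 0.329). Ripk2, the kinase that both receptors engage, stood at 36.0 and 42.1 CPM against 35.2 and 33.5 (log2 fold change -0.19, SE 0.18). Per kilobase, Nod1 exceeded Nod2 in every library, by a share of 89.2% and 85.5% of their sum in WT and 77.2% and 77.9% in Itch KO.

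Among inflammasome sensors, Nlrp3 differed most, and its log2 fold change was the largest of the 33 tested genes, ahead of Cd14. Nlrp3 responds to membrane damage, crystals and ion loss, and its transcription is known to need a priming signal. It had 17 and 12 counts in WT, against 1239 and 233 in Itch KO, or 1.13 and 0.758 CPM against 78.3 and 14.9. The lower Itch KO library was 13.1 times the higher WT library, and the Itch KO libraries differed from each other by 5.27-fold. The log2 fold change was 5.61 (SE 1.04), with edgeR adjusted p = 0.102 and DESeq2 adjusted p = 7.11e-10, a range over alternatives of 7.11e-10 to 0.385. Without knockout replicate 1 the log2 fold change was 3.96, just under the 3.98 of Cd14. Its rank by p was 814 among the 16651 tested genes.

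The other sensors differed less, and in WT the level of Aim2 was above that of Nlrp3. Nlrc4, which answers to bacterial flagellin and secretion parts through the Naip proteins, had 9 and 3 counts in WT, against 37 and 21 in Itch KO (log2 fold change 2.21, SE 0.70, adjusted p = 0.182). Aim2, a sensor of cytosolic DNA, measured 3.60 and 4.61 CPM in WT, against 13.3 and 4.84 in Itch KO (log2 fold change 1.14, SE 0.58, adjusted p = 0.310). Knockout replicate 2 lay only just above WT for Aim2, and without knockout replicate 1 its log2 fold change was 0.23. Nlrp3 took 19.5% and 12.1% of the summed CPM per kilobase of the 3 sensors in WT and 81.8% and 68.8% in Itch KO, and Aim2 took most of the rest. Pycard, the adaptor they share, was abundant in all libraries at 155 and 172 CPM against 183 and 162, with overlapping groups (log2 fold change 0.08, SE 0.16).

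The caspase genes differed by less than the spread between libraries, while gasdermin D stood higher in both Itch KO libraries. Casp1 measured 65.2 and 61.3 CPM in WT, against 70.1 and 53.5 in Itch KO (log2 fold change -0.03, SE 0.19, adjusted p = 0.930). Casp4, the mouse sensor of cytosolic lipopolysaccharide, stood at 42.7 and 24.6 CPM against 43.3 and 20.5 (log2 fold change -0.08, SE 0.48). For both caspases the libraries of the genotypes interleaved. Gsdmd, the pore-forming substrate of both, measured 8.87 and 8.90 CPM in WT, against 44.0 and 28.3 in Itch KO (log2 fold change 2.02, SE 0.30, adjusted p = 0.0760). That was the lowest adjusted p of the 34 genes. Gsdmd was called without the filter on low counts (adjusted p = 0.0408, where 1.99% of all genes were called), in DESeq2 (3.63e-06) and without either WT library, and adjusted p over the 10 alternatives ranged from 3.63e-06 to 0.464.

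Gsdma, a gasdermin of the upper epidermis and hair follicle, split the WT libraries instead of the genotypes. It measured 72.7 and 222 CPM in WT, against 148 and 199 in Itch KO (log2 fold change 0.23, SE 0.57, adjusted p = 0.828). WT replicate 1 was lowest, as it was for the hair shaft markers, and without it the log2 fold change was -0.36, against 1.26 without WT replicate 2, where adjusted p = 0.0135 within a range of 0.0135 to 0.998. Mouse Gsdma has close copies, so its reads may be shared with Gsdma2 and Gsdma3. Gsdmd took 12.3% and 4.39% of the summed CPM per kilobase of Gsdma and Gsdmd in WT and 25.4% and 14.02% in Itch KO.

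Set per length, the genes covered a wide range of levels. In WT, Gsdma, Pycard and Casp1 were the most abundant, with means of 54.1, 43.04 and 42.3 CPM per kilobase, followed by Irak1 at 20.8 and Myd88 at 19.5. Gsdma, Pycard and Casp1 did not differ from each other beyond the spread of Gsdma, at 26.7 and 81.6 in the WT libraries. In Itch KO, Cd14 was first at 299 and 69.8 CPM per kilobase, from 3.70 and 5.07 in WT, ahead of Gsdma at 54.4 and 73.0 in replicate 1 while behind it in replicate 2. Nlrp3 moved from 0.279 and 0.187 CPM per kilobase to 19.3 and 3.66. Tlr9, Tlr11, Tlr12, Nlrc4 and Ticam2 stayed below 1 CPM per kilobase in every library.

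**Figure D3:**
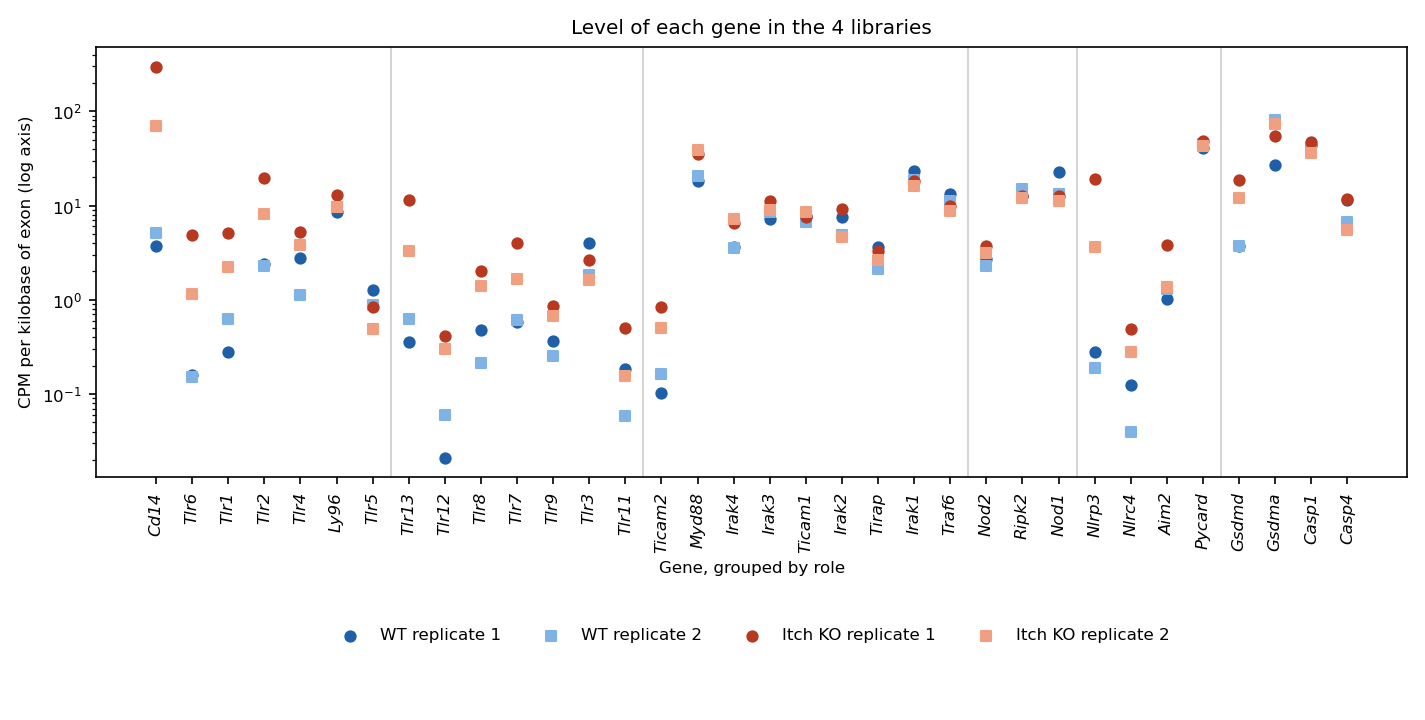
Level of each of the 34 genes in CPM per kilobase of merged exon (log axis), 1 point per library, grouped by role from plasma membrane receptors on the left to caspases and gasdermins on the right. Points of the genotypes are separated for Cd14, Tlr6, Tlr13 and Nlrp3, and mixed for Pycard, Casp1 and Casp4.

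The Itch KO libraries differed from each other, with replicate 1 the higher for most of these genes. Knockout replicate 1 exceeded replicate 2 for 29 of the 33 tested genes, and for 49.9% of all tested genes. It was at least 2 times as high for 9 of the 33, and for 3.93% of all tested genes. The 9 were Nlrp3 at 5.27-fold, Cd14 at 4.28-fold, Tlr6 at 4.21-fold, Tlr13 at 3.47-fold, Aim2 at 2.75-fold, Tlr7 at 2.41-fold, Tlr2 at 2.37-fold, Tlr1 at 2.28-fold and Casp4 at 2.12-fold. Myd88 and Irak4 did not follow, at 0.912 and 0.919. Neutrophil markers summed to 2042 CPM in knockout replicate 1 and 863 in replicate 2, most of it from S100a8 and S100a9. Macrophage and monocyte markers summed to 4017 and 3260 CPM. The part of either cell type was not tested.

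**Figure D4:**
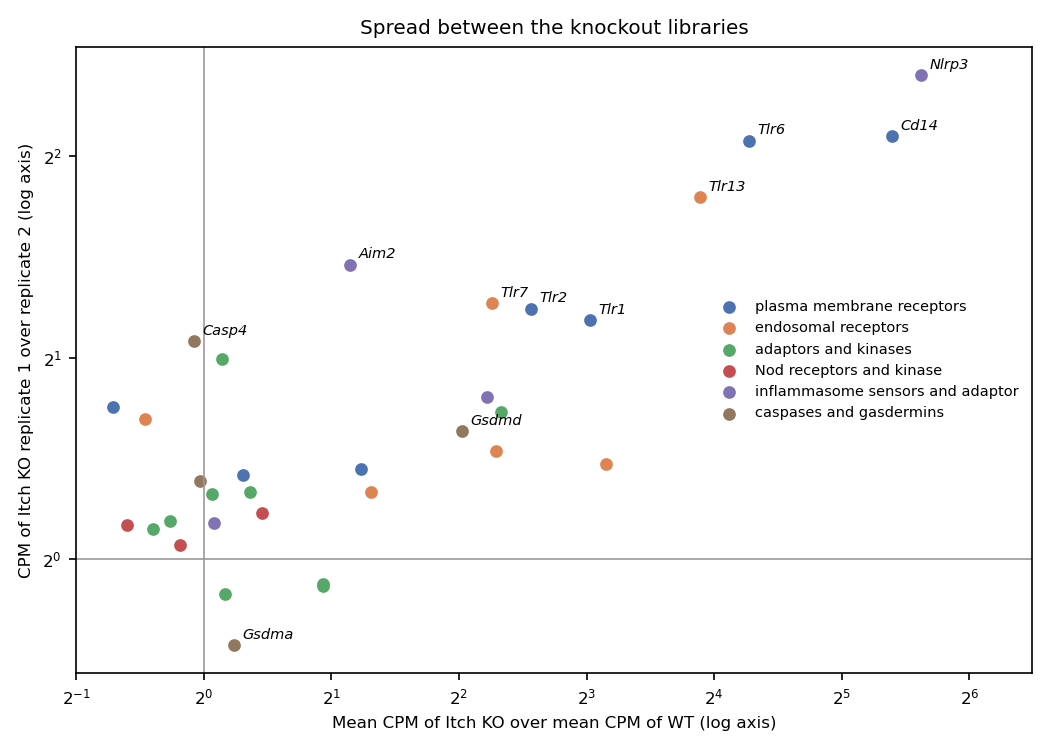
Ratio of knockout replicate 1 to replicate 2 (vertical, log axis) against the ratio of mean CPM in Itch KO to mean CPM in WT (horizontal, log axis) for the 33 tested genes, coloured by role. Both axes use the Itch KO libraries and so are not independent. Nlrp3, Cd14, Tlr6 and Tlr13 lie at the upper right, and Gsdma lies lowest.

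Other genes of the same pathways were described from lists chosen by function, with earlier results of these data known. That choice may itself raise a list's count over the share of all genes. Proteins that carry, fold or assist Toll-like receptors lay higher in most cases, 9 of 12 at an unadjusted p under 0.05 and 0 lower. Among all tested genes 12.0% and 10.9% did. In this list 0 passed adjustment and DESeq2 called 5, all higher, where it called 7.53% of genes as higher. The median log2 fold change was 1.29. Unc93b1, which brings the nucleic acid receptors to endosomes, measured 29.3 and 30.05 CPM in WT, against 152 and 112 in Itch KO (log2 fold change 2.15, SE 0.21, edgeR adjusted p = 0.0558). Lgmn, a protease that processes endosomal receptors, stood at 71.5 and 89.5 CPM against 473 and 453 (adjusted p = 0.0548). Lbp, which binds lipopolysaccharide and passes it to Cd14, stood at 44.3 and 34.6 CPM against 151 and 167 (adjusted p = 0.0554). Ly86, a partner of the receptor-like Cd180, stood at 7.47 and 8.02 CPM against 69.9 and 47.7 (adjusted p = 0.0548). For these 4 genes both Itch KO libraries lay above both WT libraries, which a choice by smallest p favours. Knockout replicate 1 was 1.36 times replicate 2 for Unc93b1 and 1.04 times for Lgmn. The ratio was 0.90 for Lbp, 1.465 for Ly86 and 2.00 for Slc15a3, the fifth gene by smallest p.

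Signalling genes further down had a median near 0. Of 19 tested kinases, ubiquitin enzymes and transcription factors, 4 lay higher and 1 lower with an unadjusted p below 0.05. The matching shares over all tested genes were 12.0% and 10.9%. In this list 0 passed adjustment, and the median log2 fold change was -0.02. DESeq2 called 1 gene, as higher, where it called 7.53% of genes as higher. Irf8, a transcription factor of myeloid cells, measured 11.5 and 8.27 CPM in WT, against 36.6 and 24.5 in Itch KO (log2 fold change 1.63, SE 0.33). Rela, an NF-kB subunit, stood at 74.7 and 76.5 CPM against 98.8 and 119 (log2 fold change 0.53, SE 0.17). Tab3, an X-linked partner of the kinase below Traf6, was the lower gene, at 43.9 and 38.7 CPM against 30.1 and 23.8.

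Inhibitors of Toll-like receptor signalling included 5 of 16 tested genes that lay higher at an unadjusted p under 0.05 and 0 that lay lower, with 0 past adjustment, 4 in DESeq2 and a median log2 fold change of 0.66. Socs3, a brake on cytokine receptors, measured 47.1 and 32.6 CPM in WT, against 142 and 164 in Itch KO (log2 fold change 1.94, SE 0.24, adjusted p = 0.0676). Nfkbia, which holds NF-kB in the cytosol and is itself a target of it, stood at 131 and 89.3 CPM against 246 and 176. Dusp1, a phosphatase of mitogen-activated protein kinases, stood at 68.8 and 35.5 CPM against 276 and 164. In these 3 the genotypes did not overlap, which a choice by smallest p favours.

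Of 29 further inflammasome genes tested, 11 were up and 4 were down by the unadjusted threshold, where 12.0% and 10.9% of all tested genes did, so the share lower was near that background. In this list 0 passed adjustment, and the median log2 fold change was 0.45. DESeq2 called 8 higher and 1 lower, where it called 7.53% and 5.46% of genes. Il1b, the cytokine gene whose product caspase-1 matures, measured 2.13 and 5.18 CPM in WT, against 664 and 196 in Itch KO (log2 fold change 6.87, SE 0.94, adjusted p = 0.0750). Il18, the other such cytokine gene and chosen after its values were seen, stood at 61.5 and 94.9 CPM against 56.8 and 49.9 (log2 fold change -0.55, SE 0.26, adjusted p = 0.286). Mefv, which encodes the sensor pyrin, stood at 0.733 and 1.07 CPM against 18.4 and 10.8 (adjusted p = 0.0632). Ninj1, which ruptures the membrane late in lytic death, stood at 35.6 and 46.5 CPM against 150.1 and 103. Nlrp10, a Nod-like receptor known from keratinocytes, was the clearest lower gene, at 215 and 156 CPM against 69.0 and 53.3 (log2 fold change -1.60, SE 0.25, adjusted p = 0.0784). Keratinocyte markers had a median log2 fold change of -0.45 over 8 genes. Of these, 5 lay below WT in both Itch KO libraries, 1 lay above and 2 overlapped. Over all tested genes 30.0% lay below and 31.2% above.

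Of 8 other gasdermin genes found, 5 could be tested. At an unadjusted p under 0.05, 2 of these 5 lay higher, where 12.0% of all tested genes did. Gsdmc2 measured 0.533 and 0.821 CPM in WT, against 9.98 and 5.54 in Itch KO (log2 fold change 3.50, SE 0.53, adjusted p = 0.0766), though the Gsdmc genes are close copies and their reads may be shared. Gsdmc had 131 and 1267 counts in WT, against 2489 and 2985 in Itch KO, with WT replicate 1 again the lowest, beside hair shaft markers at 33.1 CPM there. Sensors of RNA and DNA in the cytosol lay higher for 7 of 12 genes and lower for 0 at an unadjusted p under 0.05. Among all tested genes 12.0% and 10.9% did. After adjustment 0 of the sensors passed, and DESeq2 called 6, all higher, where it called 7.53% of genes as higher. Their median log2 fold change was 1.54. Tmem173, the adaptor STING, stood at 9.53 and 9.34 CPM against 49.2 and 62.3 (log2 fold change 2.56, SE 0.21, adjusted p = 0.0548). Ifi205 stood at 7.27 and 4.99 CPM against 32.02 and 40.1 (adjusted p = 0.0632), but near-identical family members make its count uncertain.

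**Figure D5:**
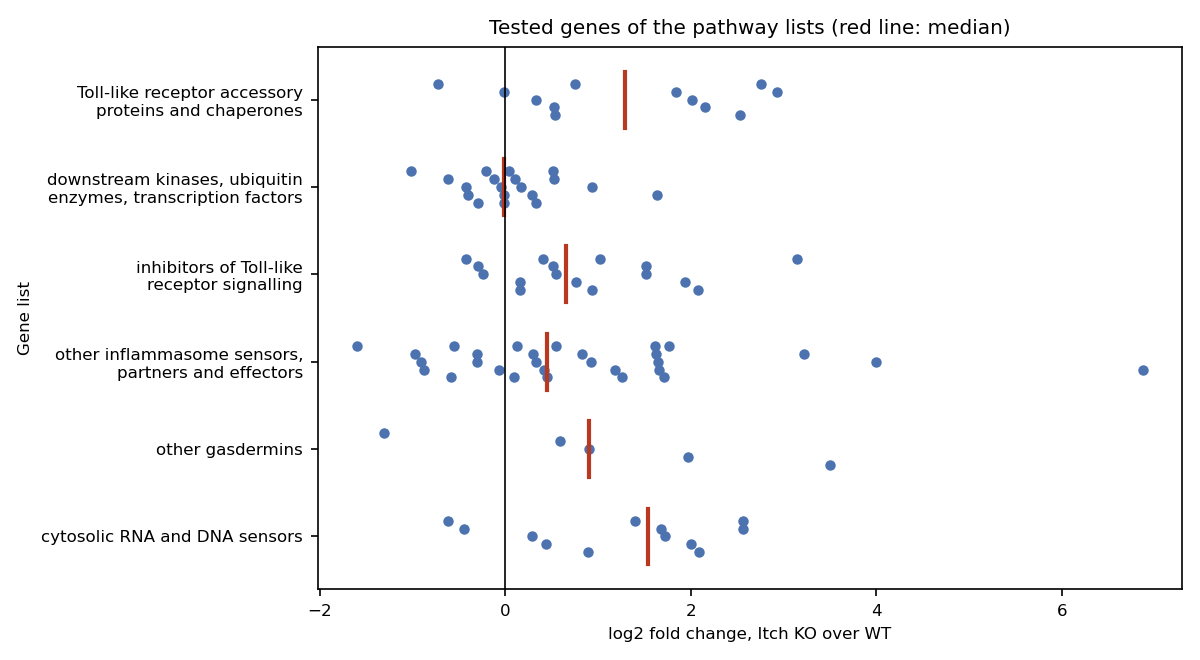
Log2 fold change of Itch KO over WT for the tested genes of 6 pathway lists, 1 point per gene, with the list median as a red line. Accessory proteins and cytosolic nucleic acid sensors have medians of 1.29 and 1.54, and downstream kinases and transcription factors a median of -0.02.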

How the data were processed

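RNA of 2 WT and 2 Itch KO skin samples was sequenced, and groups and replicate numbers came from the sample titles. The authors deposited 1 file per library of raw read counts per Ensembl gene, without normalization. The tools listed, per the submitters' processing notes, are HTSeq 0.6.1, SAMtools 0.1.19, TopHat2 and CASAVA 1.8.2, and the build is GRCm38 (mm10). No source used here gives the annotation release, strand setting or read filters. Lines for reads without a feature (5.69% to 7.45%) and ambiguous reads (4.48% to 4.70%) were left out. GENCODE vM21 gave symbols for 37607 of 39179 identifiers, and merged exon lengths.

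Counts were tested with edgeR 4.0.16 in R 4.3.3: filterByExpr with a minimum count of 10 (16651 genes), TMM scaling, and the quasi-likelihood F test (legacy, robust, two-sided) with Benjamini-Hochberg adjustment over all tested genes at 0.05. Standard errors (SE) are the log2 fold change divided by the root of F. CPM uses TMM-scaled library sizes. A count of 0 allows up to 0.189 to 0.200 CPM per library (3 counts, counting error only). Libraries of a group differed by more than sampling noise (chi-square per degree of freedom 84.4 in WT, 18.4 in Itch KO). The procedure was tested on simulated data.

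Alternatives were RLE scaling, library totals, no filter, DESeq2 1.42.0, limma-voom (limma 3.58.1), a replicate block, and each library left out. The 34 genes and the lists were chosen with earlier results of these data known. The text names all 34, Itch, Xist and Eif2s3y, overlapping genes, and S100a8 and S100a9, the most abundant neutrophil markers. Of each pathway list it names some of the 5 genes with the smallest p, not always the very smallest. Ly6g and Il18 were chosen after their values were seen. Of the list symbols, 6 had no match. Sequences are RefSeq's (GRCm38.p6). B cell, T cell, dendritic, fibroblast and endothelial markers gave 2, 4, 7, 6 and 2 genes above WT in both Itch KO libraries, of 5, 6, 11, 6 and 5. Among all tested genes 31.2% did, so the B cell and endothelial counts were near the background. Of the dendritic genes 1 lay below WT in both Itch KO libraries. Of the B cell genes 3 had too few reads to be tested.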

Additional observations from a re-analysis of the deposited data

How the results depend on the processing

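Genotype, sex and lesion are not separable. The count of all called genes was 1, and became 488 without the filter, 2233 in DESeq2, 0 in limma-voom (3566 at an unadjusted p under 0.05) and 0 with the replicate block (3998). Leaving out 1 library gave 0 to 5320 calls, the highest without WT replicate 2. Of the 34 genes, 0 were called, 1 without the filter (Gsdmd), 12 in DESeq2, and 0 to 9 with a library left out. The count at an unadjusted p under 0.05 was 15, all higher, and 9 to 15 with a library left out, lowest without knockout replicate 1. Without WT replicate 2 it was 11 higher and 4 lower, where 22.2% and 21.7% of all genes were, and the other 3 such fits gave 0 lower. With library totals only it was 15 higher and 1 lower. The median log2 fold change of 0.93 was 0.41 to 0.90 with a library left out, again lowest without knockout replicate 1. The replicate block changed no call among the 34 genes (16 at an unadjusted p under 0.05). The numbers do not show shared animals, and deviations of same-numbered libraries correlated at 0.19 across genes.

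Of 330 single-gene values under the alternatives, 291 kept direction and call, 27 became called, and 12 in 7 genes changed sign, none of them called. With 1 library left out, log2 fold changes ranged from -0.92 to 0.20 for Tlr3, from -0.26 to 0.49 for Tirap, from -0.44 to 0.56 for Irak2, from -0.024 to 0.17 for Pycard, from -0.25 to 0.15 for Casp1, from -0.72 to 0.37 for Casp4 and from -0.36 to 1.26 for Gsdma. The sign changed without WT replicate 1 for Tlr3, Pycard, Casp1, Casp4 and Gsdma, without WT replicate 2 or knockout replicate 1 for Tirap and Irak2, without knockout replicate 1 for Pycard, and without knockout replicate 2 for Casp1 and Casp4. The cause was not tested. Where a single library was left in a group, it was assumed to vary like the other group. Tlr11, Tlr12, Nlrc4, Tlr6 and Ticam2 are limited by depth in WT.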
